A study of Rattus norvegicus with 2 samples.

Results

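The genes described here make, take up, store, burn and control sterols and fatty acids. The set names 56 genes, chosen by function as enzymes of the mevalonate and sterol pathway, enzymes of fatty acid synthesis, the SREBP control system, lipoprotein receptors, and genes of fatty acid activation, oxidation and storage. Of these, 53 had a probe set with a single gene symbol, among 18166 genes measured in all. Mvk, Fasn and Fabp5 were not analysed here. Expression was measured by microarray in C6 cells, an established rat glioma line grown with serum, in 1 culture of undifferentiated cells (C6) and 1 culture treated with small molecules (SMiG). Its own labels give the compounds as forskolin, which raises cyclic AMP, rapamycin, which blocks the kinase complex mTORC1, and I-BET151, which keeps BET proteins off acetylated chromatin. The treatment text attached to both samples instead names 20 µM CHIR99021, an inhibitor of GSK3, and 100 µM forskolin for 35 days. No choice was made between these accounts, and no vehicle is named for the untreated cells. The series asks whether treated glioma cells become like glia. Each group has 1 array, so no difference has a replicate error and none was tested.

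Cells make cholesterol from acetyl-CoA through mevalonate, isoprenoids and squalene, and make fatty acids from acetyl-CoA through malonyl-CoA. Both routes are governed by SREBP transcription factors, which are held in the endoplasmic reticulum by the sterol sensor SCAP and the INSIG proteins and are carried to the Golgi and cut free when sterols run low. In the brain, where lipoproteins of the blood do not enter, glia make most of the cholesterol, and myelination places a heavy demand on lipid synthesis.

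A value below is the deposited expression value on a log2 scale, and a difference is SMiG minus C6. A gene was called detected if it lay above a floor set by odorant and pheromone receptor genes, which were taken as silent, at 4.83 on the C6 array and 4.96 on the SMiG array. Of the 53 genes, 50 were above the floor on both arrays. Acacb, encoding the acetyl-CoA carboxylase linked to mitochondria, was below it on both at 4.37 and 4.30, as were the elongase gene Elovl7 at 3.68 and 3.88 and Fabp7, which encodes a fatty acid binding protein of radial glia, at 2.85 and 3.12. In the 1342 receptor genes, whose signal is at background, the difference had an SD of 0.32, 6.86% passed 1.5-fold and 0.745% passed 2-fold.

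The promoters of the 4 detected genes that differed by at least 2-fold are shown first, since these genes carry the largest differences of the set. They are Vldlr, encoding the very low density lipoprotein receptor, Acsl5, encoding a long-chain acyl-CoA synthetase, Hadhb, encoding the beta subunit of the mitochondrial trifunctional protein, and Acly, encoding ATP citrate lyase. Each sequence is the RefSeq window of the GRCr8 assembly from 250 bases before to 50 bases after the gene's start, read 5′ to 3′ on the gene's strand. The windows are chr1:234240436-234240735 (plus strand) for Vldlr, chr1:264294601-264294900 (plus strand) for Acsl5, chr6:31907451-31907750 (minus strand) for Hadhb and chr10:85963582-85963881 (minus strand) for Acly. Capitals mark a CCAAT box, the only one of the motifs searched that occurred in these 4 windows.
Vldlr: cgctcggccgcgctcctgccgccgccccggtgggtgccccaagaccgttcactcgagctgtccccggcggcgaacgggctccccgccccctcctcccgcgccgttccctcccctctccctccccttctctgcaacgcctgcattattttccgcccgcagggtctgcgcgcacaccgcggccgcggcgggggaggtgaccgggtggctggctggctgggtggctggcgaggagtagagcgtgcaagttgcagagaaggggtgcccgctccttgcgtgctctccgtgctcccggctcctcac
Acsl5: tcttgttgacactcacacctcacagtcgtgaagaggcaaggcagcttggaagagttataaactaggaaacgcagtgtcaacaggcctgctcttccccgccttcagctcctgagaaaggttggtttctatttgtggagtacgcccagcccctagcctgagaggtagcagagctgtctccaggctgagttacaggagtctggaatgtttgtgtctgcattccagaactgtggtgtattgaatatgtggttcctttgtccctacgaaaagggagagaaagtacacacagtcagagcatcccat
Hadhb: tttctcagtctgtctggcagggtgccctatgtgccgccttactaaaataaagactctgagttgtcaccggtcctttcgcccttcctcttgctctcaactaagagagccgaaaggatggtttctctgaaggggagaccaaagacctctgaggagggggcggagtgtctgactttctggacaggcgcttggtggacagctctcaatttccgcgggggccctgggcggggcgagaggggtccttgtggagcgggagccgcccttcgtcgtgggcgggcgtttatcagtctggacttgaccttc
Acly: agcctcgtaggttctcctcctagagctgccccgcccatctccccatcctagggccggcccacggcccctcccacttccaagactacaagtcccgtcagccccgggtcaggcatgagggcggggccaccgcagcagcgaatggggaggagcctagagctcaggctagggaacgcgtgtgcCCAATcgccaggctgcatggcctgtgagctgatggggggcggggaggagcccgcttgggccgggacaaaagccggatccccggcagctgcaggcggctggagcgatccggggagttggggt

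The lipid genes were largely at the same level on both arrays, and the genes that differed most were a lipoprotein receptor, an acyl-CoA synthetase, an oxidation enzyme subunit and the enzyme that makes cytosolic acetyl-CoA. Vldlr was 5.12-fold lower in SMiG, Acsl5 2.25-fold lower and Hadhb 2.04-fold lower, while Acly was 2.02-fold higher. The other 46 detected genes lay within 2-fold. Of the 50 detected genes, 1 (2.0%) was at least 2-fold higher, where 3.19% of the 10946 detected genes of the arrays were, and 3 (6.0%) were at least 2-fold lower, where 6.51% were. At 1.5-fold, 4 (8.0%) were higher against 10.4% of all detected genes, and 9 (18.0%) were lower against 15.1%. These shares are near those of the arrays as a whole. The median difference was -0.014 over the 50 genes and -0.0054 over all detected genes. Of the 50, 25 were positive and 25 negative, where 48.9% of all detected genes were positive. For 26 of the 50 the difference was smaller than the SD of the receptor genes. Differences of 0.321 or more in either direction were seen in 49.6% of all detected genes, so this count is near that of the arrays. The receptor genes lie at background, and their SD need not hold at the levels of these genes. Counts of signs in the small groups below are to be read with the 25 of 50 and the 48.9% that were positive. In bulk RNA, fewer cells of a type and less RNA per cell cannot be told apart.

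**Figure D1:**
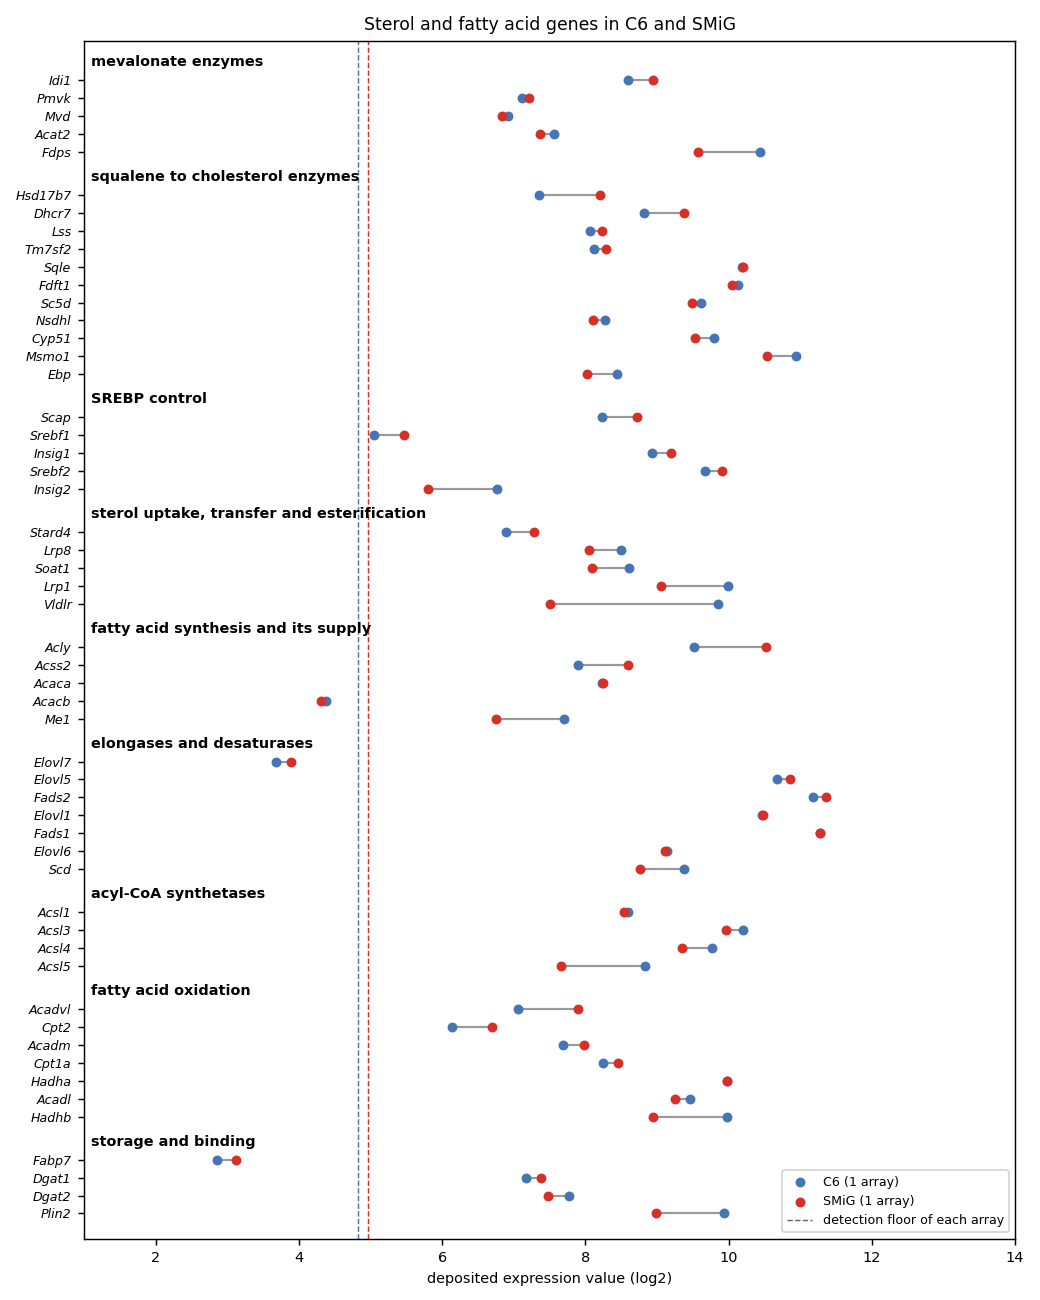
Deposited log2 expression value (x axis) of each of the 53 measured genes (y axis, by role) on the C6 array (blue) and the SMiG array (red), 1 array each, with dashed lines at the detection floors of 4.83 (C6) and 4.96 (SMiG). The longest line joins the Vldlr values of 9.85 and 7.50, and Acacb, Elovl7 and Fabp7 lie left of both floors.

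Most enzymes that make cholesterol differed by less than 1.5-fold between the untreated and treated cells, as did most genes of the arrays. Of 17 listed enzymes 16 were measured, 14 of them within 1.5-fold, where 74.5% of all detected genes were, and their median difference was -0.09. The 2 exceptions lay on opposite sides. Fdps, encoding farnesyl diphosphate synthase, which makes the isoprenoid that feeds both sterols and protein prenylation, was at 10.43 in C6 and 9.56 in SMiG, which is 1.82-fold lower. Hsd17b7, encoding the 3-ketosteroid reductase that acts in demethylation of the sterol nucleus, was at 7.35 in C6 and 8.21 in SMiG, which is 1.81-fold higher. Differences of either sign at least as large as that of Fdps were seen in 13.0% of detected genes.

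In the mevalonate steps, 5 of 6 enzymes were measured and their median difference was -0.09. Acat2, encoding the cytosolic thiolase that joins acetyl-CoA units, was at 7.56 in C6 and 7.36 in SMiG. Pmvk, encoding phosphomevalonate kinase, had a difference of 0.09, and Mvd, encoding the decarboxylase that follows it, of -0.09. Idi1, encoding the isomerase that supplies dimethylallyl diphosphate, was at 8.60 in C6 and 8.94 in SMiG and had the highest difference of the group, 0.34. None of these 4 reached 1.5-fold.

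Past farnesyl diphosphate, all 11 enzymes were detected, with 5 positive and 6 negative differences and a median of -0.08. Fdft1, encoding squalene synthase, was at 10.13 and 10.04 (C6 first, here and below), and Sqle, encoding squalene epoxidase, a rate-controlling step of the later pathway, was at 10.19 and 10.20. Lss, encoding the cyclase that forms lanosterol, had a difference of 0.18 and Cyp51, encoding lanosterol demethylase, of -0.26. Ebp, a sterol isomerase, was at 8.44 and 8.02, the lowest difference of the group at -0.42. Dhcr7, which catalyses the last reduction to cholesterol, was at 8.82 and 9.37. Dhcr7, at a difference of 0.56, was 1.47-fold higher and the nearest to the 1.5-fold mark of those inside it. Msmo1, encoding a sterol methyl oxidase, had a difference of -0.40, Nsdhl, its partner dehydrogenase, of -0.16, Sc5d, a desaturase, of -0.14, and Tm7sf2, a sterol reductase, of 0.16. Enzymes that act in the same demethylation steps thus differed in sign, with Hsd17b7 higher and Msmo1 and Nsdhl on the lower side within 1.5-fold.

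Among the control genes, Insig2 was the one that differed by more than 1.5-fold. Insig2, encoding the INSIG protein whose transcription is commonly less dependent on SREBP, was at 6.76 and 5.81, which is 1.94-fold lower. Insig1, encoding the INSIG protein that is itself a sensitive SREBP target, was at 8.92 and 9.19. The 2 genes lay 1.22 apart in their differences. Scap, encoding the sterol sensor that escorts SREBPs to the Golgi, was at 8.23 and 8.71, a difference of 0.49. Srebf2, encoding the SREBP that mainly drives cholesterol genes, was at 9.67 and 9.90, a difference of 0.23. Srebf1, encoding the SREBP that mainly drives fatty acid genes, was at 5.05 and 5.46, close to the floor on both arrays, and was not detected under the higher floor, the 99th percentile of the silent receptors. Of the 5 control genes 4 were on the positive side, within 1.5-fold, and the median was 0.27.

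Genes of lipoprotein uptake gave the largest difference of the set. The median of the 5 genes of sterol uptake, transfer and esterification was -0.53, and 4 of them had a lower value in SMiG. Vldlr, encoding a receptor for lipoproteins rich in apolipoprotein E and for reelin, was at 9.85 and 7.50. A difference of at least that size in either direction, 2.35, was seen in 1.04% of detected genes. Lrp1, encoding a large endocytic receptor of the same family, was at 9.99 and 9.06, which is 1.90-fold lower. Lrp8, encoding the other reelin receptor, was at 8.50 and 8.05, a difference of -0.45 and within 1.5-fold. All 3 receptors thus had lower values in the treated culture, by sizes that ran from 1.37-fold to 5.12-fold. Soat1, encoding the enzyme that esterifies cholesterol for storage, was at 8.61 and 8.09, a difference of -0.53. Stard4, encoding a protein that moves cholesterol between membranes, was at 6.89 and 7.28, a difference of 0.39.

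Among genes of fatty acid synthesis, those that supply acetyl-CoA had higher values in SMiG and the NADPH-producing malic enzyme a lower one. Acly, encoding the enzyme that splits citrate to cytosolic acetyl-CoA, was at 9.51 and 10.53, just past 2-fold at a difference of 1.02. Acss2, encoding the cytosolic synthetase that makes acetyl-CoA from acetate, was at 7.89 and 8.59, which is 1.62-fold higher. Acaca, encoding the carboxylase that commits acetyl-CoA to fatty acids, was at 8.23 and 8.25. Me1, encoding cytosolic malic enzyme, was at 7.70 and 6.75, which is 1.93-fold lower. The median of these 4 detected genes was 0.36, and it was 0.017 when Acacb, below the floor, was included.

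The elongases and desaturases were close to equal, with a median of 0.01 over 6 detected genes. Fads1 and Fads2, encoding the desaturases that make polyunsaturated fatty acids, were at 11.28 and 11.28, and at 11.18 and 11.36. Elovl1, an elongase of saturated very long chains, had a difference of 0.01, Elovl5, an elongase of polyunsaturated chains, of 0.18, and Elovl6, which elongates palmitate, of -0.03. Scd, encoding a stearoyl-CoA desaturase that makes oleate, was the exception at 9.38 and 8.77, which is 1.53-fold lower. Scd2, a related desaturase gene outside the set, was at 12.00 and 12.48, a difference of 0.48. Cross-hybridisation between these closely related genes was not tested.

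The 4 acyl-CoA synthetases, which activate long-chain fatty acids for use, all had lower values in SMiG, by very different amounts. Acsl5, which is found on mitochondria and endoplasmic reticulum, was at 8.83 and 7.66, a difference of -1.17. Acsl4, which prefers arachidonate, was at 9.77 and 9.35, Acsl3, which acts at lipid droplets, at 10.20 and 9.96, and Acsl1 at 8.59 and 8.53. The median was -0.34, and Acsl5 was the only 1 of the 4 past 1.5-fold.

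Oxidation genes were split, and the 2 subunit genes of one enzyme complex differed by unequal amounts. Hadhb was at 9.98 and 8.95, a difference of -1.03, whereas Hadha, encoding the alpha subunit of the same trifunctional protein, was at 9.98 and 9.98. The differences of these subunit genes lay 1.03 apart. In the GRCr8 assembly their starts face away from each other 301 bases apart, so that 200 bases of the Hadhb window printed above are also in the Hadha window. Acadvl, encoding the dehydrogenase of very long chains that precedes the trifunctional protein, was at 7.06 and 7.90, which is 1.78-fold higher. Cpt2, encoding the inner carnitine palmitoyltransferase, was at 6.14 and 6.70, a difference of 0.56. Cpt1a, encoding the outer transferase that controls entry to mitochondria, had a difference of 0.21, the medium-chain dehydrogenase gene Acadm of 0.30 and the long-chain dehydrogenase gene Acadl of -0.21. Of the 7 genes, 5 were on the positive side and the median was 0.21.

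For storage, the lipid droplet coat gene Plin2 was lower in the treated culture. Plin2 was at 9.94 and 8.98, which is 1.95-fold lower. Dgat1 and Dgat2, encoding the unrelated enzymes of the final step to triglyceride, were at 7.17 and 7.38, and at 7.77 and 7.48, with differences of 0.21 and -0.29. The adipocyte markers were near background, with 1 of 8 (Plin1, at 4.95 and 5.03) above the floor, and none of 5 microglial markers was above it. Detected among the measured markers were 3 of 5 neuronal, 2 of 3 endothelial and 1 of 3 hepatocyte genes. The highest of these was the neuronal marker Map2, at 8.80 and 9.01. The neuronal marker Rbfox3 was below the SMiG floor and so detected only through C6. The endothelial markers Tek and Cldn5 and the hepatocyte marker Ttr passed the SMiG floor by only 0.016, 0.27 and 0.23. C6 cells carried glial markers on both arrays, with all 7 listed above the floor and 5 positive and 2 negative differences. Vim was at 12.74 and 12.74, S100b at 9.67 and 10.87, Sox10 at 9.30 and 10.32, and Cspg4 at 8.70 and 9.12. Olig2 was at 5.08 and 5.43, Nes at 8.74 and 8.59, and Gfap, the intermediate filament gene of astrocytes, at 6.04 and 5.48. Of 5 measured oligodendrocyte markers 1 was above the floor in C6 and 4 were in SMiG, and the summed level of the list on the log2 scale was 9.29 in C6 and 10.68 in SMiG. Cnp, at 9.05 and 10.57, made up most of that sum, while Mbp, Mog and Mag passed the SMiG floor by only 0.03, 0.0022 and 0.21. Their part in the differences of the lipid genes was not tested.

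**Figure D2:**
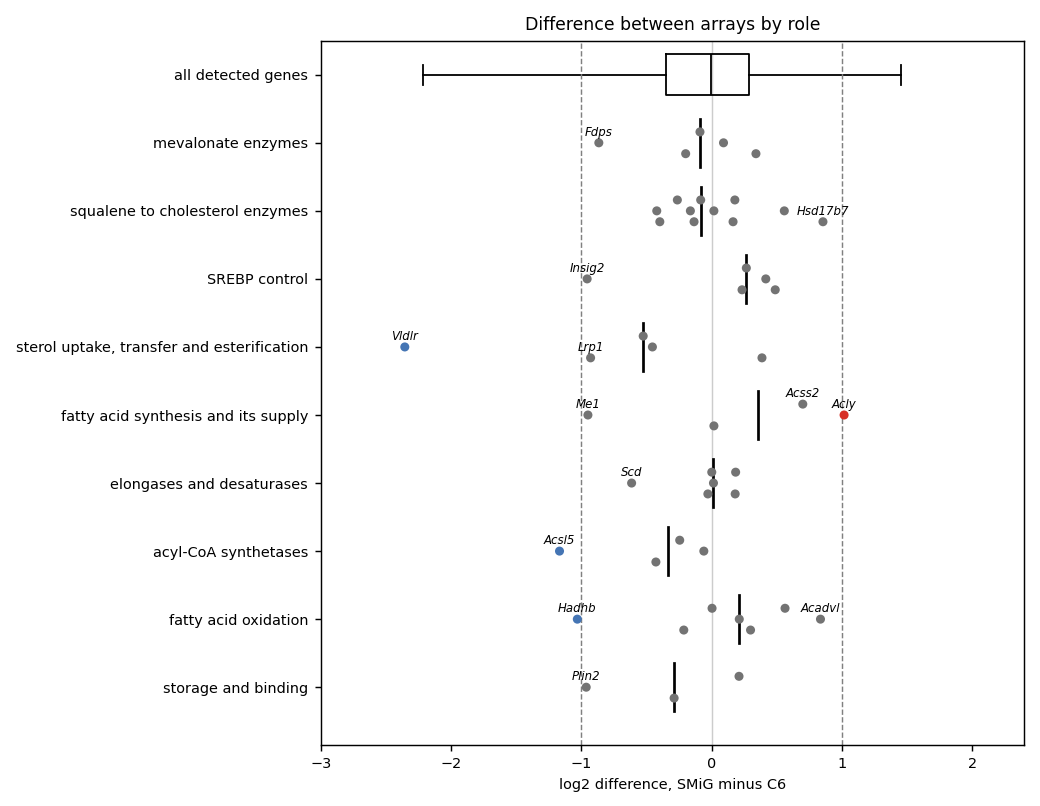
Log2 difference, SMiG minus C6 (x axis), of the 50 detected genes by role (points), with the median of each role as a vertical bar, dashed lines at 2-fold, and above them a box of the 10946 detected genes (median, quartiles, whiskers from percentile 1 to percentile 99). Vldlr at -2.35 is the only point beyond the lower whisker, and the sterol enzymes gather around 0.

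Several families held genes that differed unequally between the arrays. In the set these were the lipoprotein receptors, with the widest spread of differences at 1.90, and the INSIG genes, the trifunctional protein subunits and the acyl-CoA synthetases described above. Among other lipid genes, the glycerol phosphate acyltransferases, which start glyceride synthesis, ran from Gpat3, at least 3.02-fold lower and below the floor in SMiG, to the mitochondrial enzyme gene Gpam, at 8.30 and 9.16. The next enzymes, the AGPAT acyltransferases, ran from Agpat2, at 8.87 and 6.30, which is 5.94-fold lower, and Agpat4, at -1.34, to Agpat5, at 0.79. The lipins, phosphatidate phosphatases, ran from Lpin3, at least 2.43-fold lower, to Lpin1, at 0.81. The families were put together after the values were seen, and probe sets of different genes can respond differently to the same change.

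**Figure D3:**
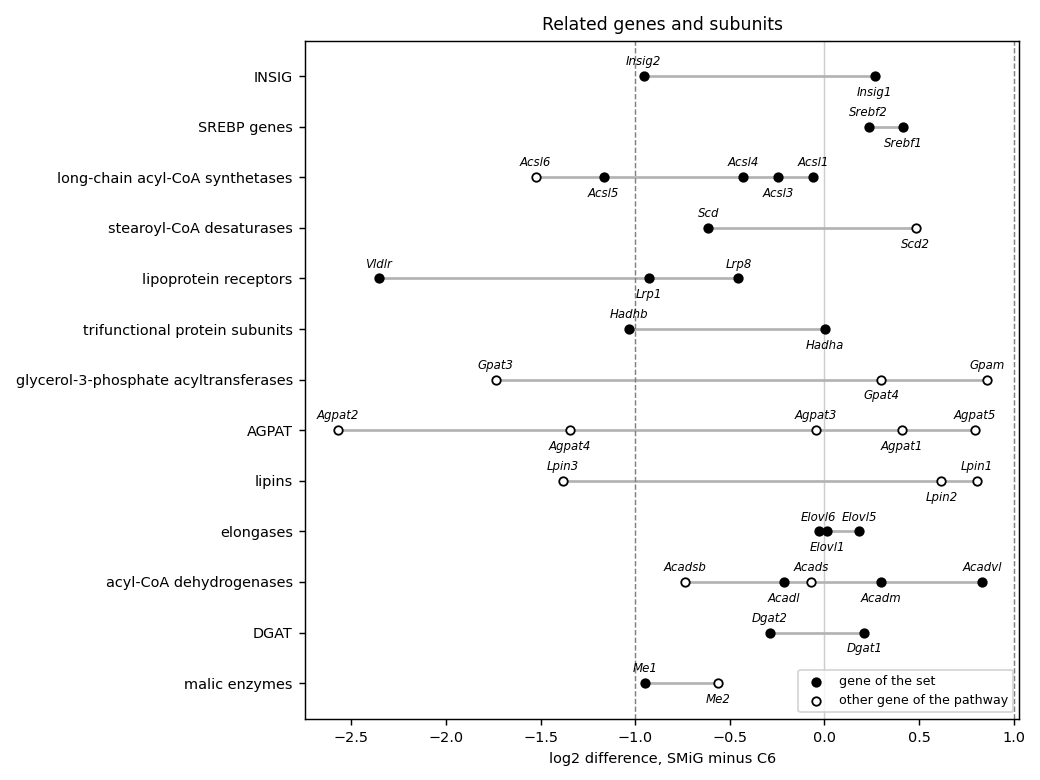
Log2 difference, SMiG minus C6 (x axis), of related genes or subunits (y axis), with filled points for genes of the set, open points for other lipid genes and dashed lines at 2-fold. The AGPAT family spans the widest range, from -2.57 to 0.79, while the elongases lie within -0.03 to 0.18.

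Of 153 other lipid genes in 9 lists, 137 were measured and 106 detected, and their median difference was -0.0026. Of the 106, 6 (5.66%) were higher and 7 (6.6%) lower by 2-fold or more, where 3.19% and 6.51% of all detected genes were. The counts for single lists below are to be read against these 2 shares. In the list of sterol enzymes outside the set and isoprenoid branches, 1 of 10 was past 2-fold. It was Rabggta, encoding a subunit of the transferase that prenylates Rab proteins, at 8.25 and 7.16. Rabggtb, encoding the other catalytic subunit of that transferase, was at -0.76, and Pggt1b, encoding a subunit of a related prenyltransferase, at -0.85. Fnta and Fntb, further prenyltransferase genes of this list, were at 0.63 and -0.07. In SREBP processing and sterol sensing none of 11 was past 2-fold. Mbtps1, encoding the first protease that cuts SREBPs, was at 8.54 and 9.44, Mbtps2, encoding the second, at 7.71 and 6.86, and Paqr3, encoding a Golgi anchor of SCAP, at 6.47 and 7.47. The proteases thus had differences of opposite sign.

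Sterol export, oxysterol and LXR genes included 3 of 15 that were at least 2-fold higher and none at least 2-fold lower, against 3.19% and 6.51% of all detected genes. Lrpap1, encoding the chaperone that keeps receptors of the LRP family from binding ligand early, was at 8.36 and 9.76. Npc1, encoding the exporter of cholesterol from lysosomes, was at 7.65 and 8.94. Mylip, encoding the ubiquitin ligase that targets lipoprotein receptors including the Vldlr product for degradation, was at 5.91 and 7.10. At 1.5-fold, 4 of the 15 were higher and 3 lower, against 10.4% and 15.1% of all detected genes. The 3 lower ones were the transporter genes Abca1, Abcg1 and Abcg4, at -0.62, -0.77 and -0.95. Abca1 and Abcg4 lay only 0.33 and 0.29 above the floor in SMiG. Another transporter gene, Abca2, was among the higher ones, at 0.83. The median of this list was -0.06, with 8 of the 15 on the negative side.

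In citrate, acetyl-CoA and NADPH supply, Pc, encoding pyruvate carboxylase, was the 1 of 6 past 2-fold, at 6.97 and 8.90, which is 3.80-fold higher. Me2, a mitochondrial malic enzyme, was at -0.56 and Cs, citrate synthase, at 0.26. None of 12 lipogenic regulators was past 2-fold. Among them Mid1ip1, encoding an activator of acetyl-CoA carboxylase, was at 0.97, and Prkab2 and Prkaa2, encoding AMPK subunits, at -0.77 and -0.57. The AMPK subunit genes Prkaa1 and Prkab1 were at -0.43 and 0.46, so the subunit genes differed in sign. In uptake and binding, Dbi, encoding the acyl-CoA binding protein, was 2.41-fold and Slc27a4, encoding a fatty acid transport protein, 2.34-fold higher, and Acsl6, a further acyl-CoA synthetase, 2.88-fold lower, among 8. Of the other elongation and desaturation genes 1 of 6 was past 2-fold, Hacd1, a dehydratase of the elongation cycle, at -1.27, beside Fads3 at -0.59. Of 20 detected glyceride, droplet and lipolysis genes 4 were at least 2-fold lower, namely Agpat2, Gpat3, Lpin3 and Agpat4, and none higher, against 6.51% and 3.19% of all detected genes. Gpat3 and Lpin3 were below the floor in SMiG and so were detected only through C6, where they were higher. Both also count in the share of lower genes over all the lists. Of 18 further oxidation genes none was past 2-fold. In this last list Hadh, encoding a short-chain dehydrogenase, was at 0.75, Acaa2, encoding a mitochondrial thiolase, at -0.81 and Acadsb, encoding a branched-chain dehydrogenase, at -0.74.

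**Figure D4:**
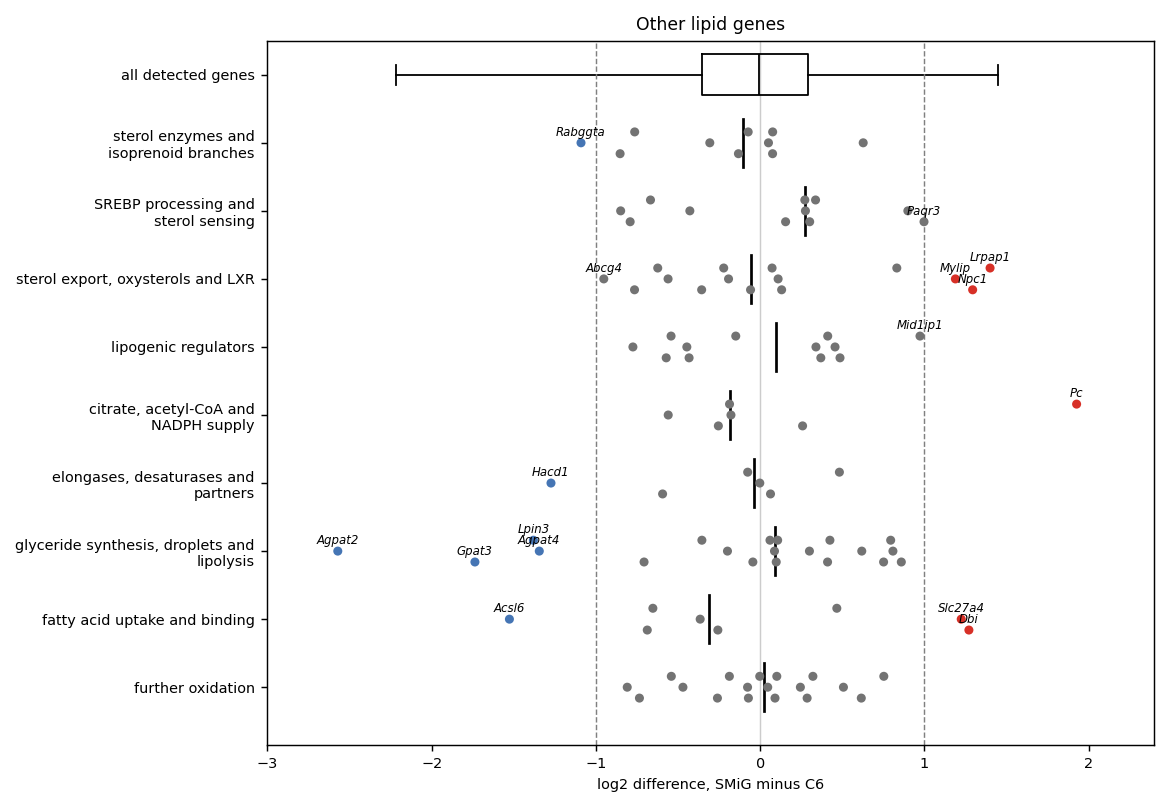
Log2 difference, SMiG minus C6 (x axis), of 106 detected lipid genes outside the set, in 9 lists (points), with list medians as vertical bars, dashed lines at 2-fold and a box of all detected genes as in the plot by role. Pc at 1.93 is the highest point and Agpat2 at -2.57 the lowest, and red and blue points are at least 2-fold higher and lower.

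Promoter windows were found for 43 of the 53 measured genes, 45 windows in all, and were searched on both strands. The CCAAT box, bound by the factor NF-Y that acts with SREBPs, was in 27 of the 45 windows (60.0%), against 37.8% of windows of detected genes and 37.5% of all 33469 windows. Of the 4 genes past 2-fold, Acly alone held one. The sterol response element TCACNCCAC was in none of the 45 windows, in 1.1% of windows of detected genes and in 1.12% of all windows. The shorter form CACNCCAC, contained in it and added after the values were seen, was in 6 windows (13.3%), those of Acat2, Acsl4, Ebp, Elovl5, Fads1 and Insig1, against 5.86% of windows of detected genes and 5.8% of all windows. The E-box CACGTG was in 5 windows (11.1%, against 9.53% of windows of detected genes and 6.42% of all windows), the cAMP response element TGACGTCA in those of Acadm and Elovl5 (4.44%, against 3.12% and 1.83%) and the DR1 element in none (0.0406% and 0.0538%). Member windows had a median GC content of 63.7%, windows of detected genes 60.7% and all windows 51.7%, and a match describes letters in the window, not binding.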

How the data were processed

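Total RNA of 1 C6 and 1 SMiG culture was made into sense cDNA and biotin-labelled with a GeneChip whole-transcript kit, per the labels' protocols. The deposited values, for 36685 probe sets on each array, were taken as log2. The log base was read from the values, which reach 13.09, above 11.09, the natural log of a 16-bit maximum. How the authors corrected background, normalized the arrays and combined probes is not given in the sources used here, and could change any fold. The sorted columns differed by a median of 0.04, so no further scaling was applied.

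Probe sets with 1 symbol in the platform annotation (18511) were averaged per gene. The floor was the 95th percentile of 1342 receptor genes on each array. A gene below it on the dimmer array has a fold of at least the brighter value over the floor. With 1 array per group, no test was run, and the number of arrays limits the precision. The genes and lists were chosen with earlier results of these data known. Named from the other lists were up to 3 detected genes each with the largest absolute difference. Abca1, Abca2, Abcg1, Abcg4, Agpat4, Agpat5, Fnta, Fntb, Gpam, Lpin1, Prkaa1 and Prkab1 were named beside them and were picked once the values were known. The code was run on simulated arrays with known added differences, all larger than that of any gene of the set except Vldlr. Differences near the fold thresholds were not simulated. Python 3.11.15, numpy 2.4.6, pandas 2.3.3, statsmodels 0.14.6 and matplotlib 3.10.9 were used.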

Additional observations from a re-analysis of the deposited data

How the results depend on the processing

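Results were recomputed with the floor raised to percentile 99 of the receptors, no floor, values below the floor raised to it, centring, removal of a lowess trend (span 0.3), quantile normalization and the brightest probe set. The counts of genes at least 2-fold higher (1) and lower (3) were the same under all 7. At 1.5-fold the count of higher genes was 4 or 5 and that of lower genes 9. Of 98 values of the counts and medians, 97 moved by less than the SD of the receptor genes or by less than 1.5 times. The exception was the median of the fatty acid synthesis genes, 0.36 and, with no floor, 0.017, since Acacb then entered. All 13 genes past 1.5-fold kept their sign under each alternative run on them, and Acly, the nearest to 2-fold, ran from 1.01 to 1.03. No gene of the set had more than 1 probe set, and the 50 detected genes were above the floor on both arrays. Taking the brightest probe set or raising values to the floor therefore could not change their values. Moving or dropping the floor could only change which genes were counted. No paired analysis was possible because each group has 1 array. Genes below the floor have no measured order.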

Other observations

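After the values of Hadha and Hadhb were seen, their difference was set beside that of other genes whose starts face away from each other with overlapping promoter windows. In 373 such pairs with both genes detected, the differences of the pair lay a median of 0.41 apart. The gap of 1.03 between Hadhb and Hadha was reached or passed by 39 pairs (10.5%). The set held 1 other such gene, Nsdhl, at -0.16, whose window overlaps that of the centrin gene Cetn2, at 0.43.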
